A study of Mus musculus with 32 samples.

Results

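The receptors for noradrenaline and adrenaline were examined in the mouse striatum through 7 genes, *Adra1a*, *Adra1b*, *Adra1d*, *Adra2a*, *Adra2b*, *Adra2c* and *Adrb1*. They were taken by symbol and family from the 23420 genes of the count tables, and all 7 were among the 15589 genes that passed edgeR's filter on low counts. The study mapped a quantitative trait locus for methamphetamine sensitivity to a segment of chromosome 11 and sequenced striatal RNA of congenic mice to find transcripts that differ with that segment. The 8 B6.D2 mice were naïve Line 4a congenics, heterozygous for a DBA/2J (D2) segment of chromosome 11 on a C57BL/6J (B6) background, and the 8 B6 mice were their naïve wild-type littermates. The labels give an age of about 50 days for both groups, and each library came from the pooled striatal punches of the left and right hemisphere of 1 mouse. Mice 1 to 4 of each genotype were sequenced on lanes 5 and 6 and mice 5 to 8 on lanes 7 and 8, and the lane files of a mouse were summed. Each mouse had from 19032826 to 33748353 reads assigned to genes. Home cage, which the study's own model included, and sex were not used here.

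Adrenergic receptors fall into families that signal through different G proteins. Alpha-1 receptors couple to Gq/11, which activates phospholipase C and releases calcium from internal stores, alpha-2 receptors couple to Gi/o, which restrains adenylyl cyclase and opens potassium channels, and beta receptors couple to Gs, which raises cyclic AMP. The striatum receives few noradrenergic fibers outside the nucleus accumbens shell, and the alpha-2C receptor is known as an abundant alpha-2 subtype of striatal projection neurons.

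A pair of libraries stood apart from the rest of their genotype in the shares of counts and, as given below, in some gene levels. Shares here are of all counts of a mouse, with the entries that name no gene included. In B6.D2 mouse 1, 27.3% were for several alignments and 10.2% fell outside annotated exons, against 20.4% to 21.1% and 14.5% to 15.6% in the other B6.D2 mice. In B6 mouse 8, 11.3% fell outside annotated exons, against 14.8% to 15.9% in the other B6 mice. Genotype differences are therefore also given for the 14 mice left without this pair, a choice made after seeing the data.

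Markers of the labelled tissue were abundant. Of 9 genes that mark striatal projection neurons, all 9 were tested and the most abundant were the phosphodiesterase *Pde10a*, at a mean of 1511 CPM (the count as a fraction of all reads on genes in the library, per 1e6, scaled with the TMM normalization factor), and *Ppp1r1b*, which encodes DARPP-32, at 1343 CPM. Cell bodies of noradrenergic neurons left little trace. The transcription factor gene *Phox2a*, which marks them, had 7 counts over all 16 mice, and the noradrenaline transporter *Slc6a2* had a mean of 0.276 CPM.

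Among the alpha-1 receptors, *Adra1a* lies on chromosome 14 from 66635251 to 66771240 (GRCm38), and its annotated exons cover 8728 bp. Its level ranged from 4.83 to 7.46 CPM in B6 mice (median 6.78) and from 1.94 to 7.10 CPM in B6.D2 mice (median 6.03). The groups overlapped, 7 of the 8 B6.D2 mice were below the B6 median, and the lowest value of all, 62 counts, came from B6.D2 mouse 1. For B6.D2 against B6 this came to a log2 fold change of -0.29 ± 0.19 (SE; 95% CI -0.68 to 0.10; n = 8 mice in each group; p adjusted over all genes tested by the false discovery rate, FDR, of 0.608 in edgeR's quasi-likelihood test). Without B6 mouse 8 and B6.D2 mouse 1 it was -0.14 ± 0.12 (adjusted p = 0.622 by the same edgeR test). An exact permutation test of the CPM values gave p = 0.115 for all 16 mice and p = 0.341 for the 14.

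*Adra1b*, whose product also couples to Gq/11, is the only 1 of the 7 genes on the chromosome that carries the D2 segment. It lies on chromosome 11 from 43774605 to 43901250 and ends 6.47 Mb before *Hnrnph1*, which lies from 50375257 to 50386528, and it is outside the segment that the study describes for Line 4a. In B6 mice its level ranged from 6.77 to 11.7 CPM (median 9.29) and in B6.D2 mice from 6.07 to 10.7 CPM (median 7.90). The groups overlapped in 7 of 8 B6.D2 mice, with only B6.D2 mouse 4 below the lowest B6 mouse, and 7 of the 8 were below the B6 median. For this gene edgeR gave a log2 fold change of -0.26 ± 0.11 (SE; 95% CI -0.50 to -0.03), with an unadjusted p of 0.0308 and an adjusted p of 0.463 in edgeR's quasi-likelihood test. The exact permutation test gave p = 0.0507, and without B6 mouse 8 and B6.D2 mouse 1 the log2 fold change was -0.30 ± 0.12 (adjusted p = 0.320, edgeR). With 1 mouse left out, edgeR's unadjusted p ran from 0.00475 (without B6.D2 mouse 2) to 0.0734 (without B6 mouse 3). It was over 0.05 without B6 mouse 1, 3 or 6 and without B6.D2 mouse 3, 4 or 8.

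*Adra1d*, the remaining alpha-1 subtype, lies on chromosome 2 from 131545357 to 131562497. In the GENCODE annotation 147 of its 1901 bp of exon overlap a gene on the opposite strand, Gm14285, and since reads were counted without strand, reads from the overlap cannot be assigned to one of them. B6 mice ranged from 3.90 to 8.18 CPM (median 6.89), and B6.D2 mice from 3.75 to 7.99 CPM with a median of 5.01. Both ends of the ranges lay close together, yet 7 of the 8 B6.D2 mice were below the B6 median. With all 16 mice the log2 fold change was -0.29 ± 0.16 (SE; 95% CI -0.63 to 0.04; adjusted p = 0.547, edgeR's quasi-likelihood test). Leaving out B6 mouse 8, the lowest B6 mouse for this gene, together with B6.D2 mouse 1 gave -0.40 ± 0.14 (adjusted p = 0.298, edgeR), and the exact permutation p moved from 0.106 to 0.0338.

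The values of *Adra1d* are also given by pair of lanes. Among mice of lanes 5 and 6 the 4 B6 mice ranged from 6.46 to 8.18 CPM and the 4 B6.D2 mice from 3.75 to 5.86 CPM, so that these groups of 4 did not overlap, as was the case for 1 of the 7 receptor genes and for 2.46% of all genes in these lanes. Among mice of lanes 7 and 8 the ranges were 3.90 to 7.19 CPM in B6 and 4.01 to 7.99 CPM in B6.D2, with partial overlap. The lowest B6 value there came from B6 mouse 8, whose library stood apart, and the other 3 B6 mice of these lanes had at least 5.04 CPM. The log2 fold change was -0.61 ± 0.15 in the first pair of lanes (unadjusted p = 0.00244, adjusted p = 0.862, edgeR). In these lanes 1 of the 7 receptor genes and 3.20% of all genes had an unadjusted p under 0.05. In the second pair the log2 fold change was 0.03 ± 0.23 (adjusted p = 0.963, edgeR). The genotype by lane pair term was 0.65 ± 0.30 (unadjusted p = 0.0442, adjusted p = 0.950, edgeR's quasi-likelihood test), so that a difference between the pairs of lanes did not pass. Without B6 mouse 8 and B6.D2 mouse 1 the term was 0.61 (unadjusted p = 0.0355, adjusted p = 0.999, edgeR). At an unadjusted p under 0.05 this term was found for 1.88% of all genes tested and for 1 of the 7 receptor genes, and the number of genes past an FDR of 5% was 0 in the quasi-likelihood test and 0 in the likelihood ratio test, which had 274 at an unadjusted p under 0.05.

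**Figure D1:**
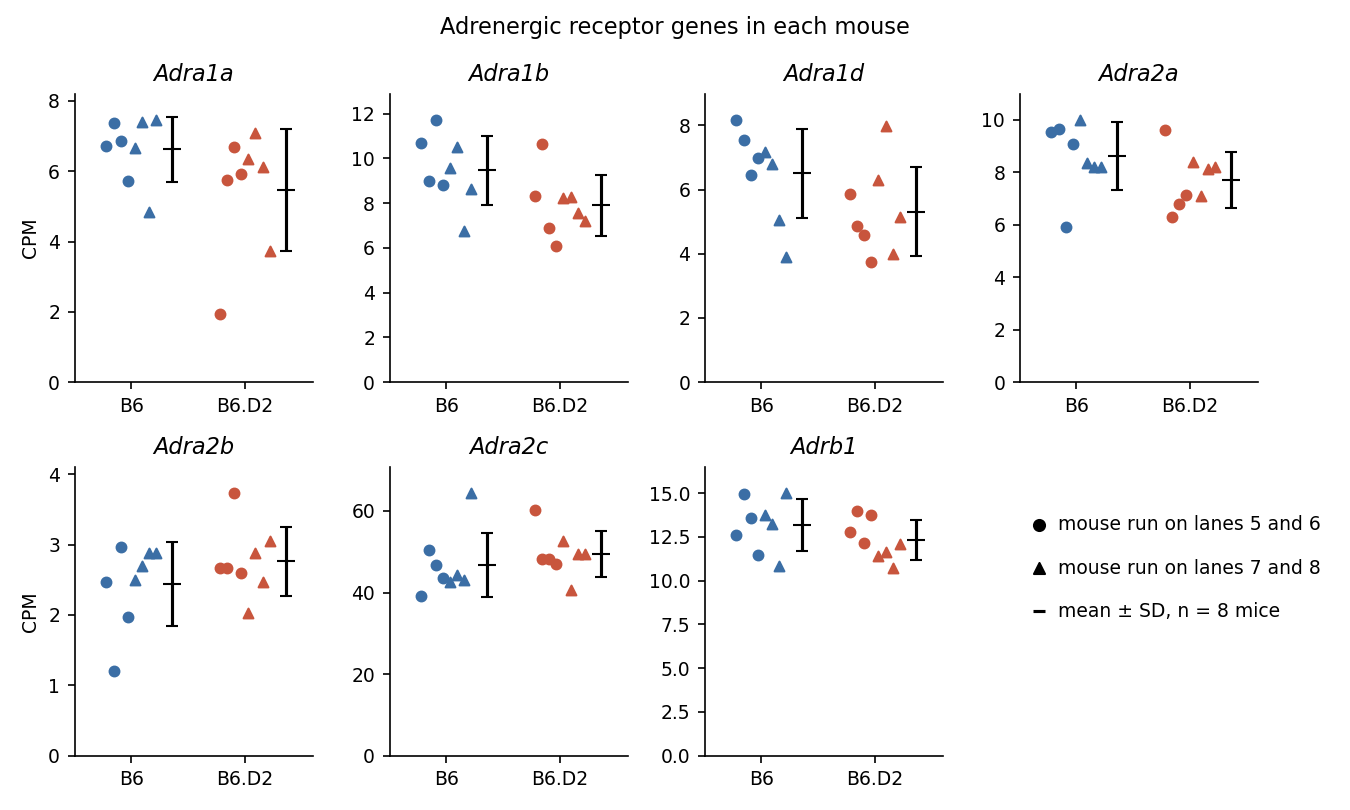
Level of each receptor gene in CPM (vertical axis, from 0) in 8 B6 and 8 B6.D2 mice, each point 1 mouse, with circles for lanes 5 and 6, triangles for lanes 7 and 8, and bars for the mean ± SD. The groups overlap for all 7 genes, and B6.D2 mouse 1 is the low *Adra1a* point at 1.94 CPM.

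The alpha-2 receptors spanned the widest range of levels. *Adra2c*, on chromosome 5 from 35278566 to 35281763, had between 819 and 1966 counts per mouse. It ranged from 39.2 to 64.4 CPM in B6 mice (median 43.9) and from 40.6 to 60.3 CPM in B6.D2 mice (median 48.9). Every B6.D2 mouse was within the B6 range, 7 of the 8 were above the B6 median, and the highest mice of their genotypes were B6 mouse 8 and B6.D2 mouse 1, whose libraries stood apart. The log2 fold change was 0.08 ± 0.09 (SE; 95% CI -0.11 to 0.27; adjusted p = 0.780, edgeR's quasi-likelihood test), and 0.11 ± 0.06 without these libraries (adjusted p = 0.414, edgeR). Each alone moved it in an opposite direction, to 0.16 without B6 mouse 8 (unadjusted p = 0.0373, adjusted p = 0.546, edgeR) and 0.03 without B6.D2 mouse 1 (adjusted p = 0.884, edgeR). By lanes it was 0.18 in lanes 5 and 6 (adjusted p = 0.862, edgeR) and -0.02 in lanes 7 and 8 (adjusted p = 0.955, edgeR).

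*Adra2a*, the subtype best known as the autoreceptor of noradrenergic neurons, lies on chromosome 19 from 54045259 to 54048982. Its level ranged from 5.90 to 10 CPM in B6 mice (median 8.71) and from 6.31 to 9.62 CPM in B6.D2 mice (median 7.63). All 8 B6.D2 mice were within the B6 range because B6 mouse 3 was low, and 7 of the 8 fell short of the B6 median. A log2 fold change of -0.16 ± 0.10 (SE; 95% CI -0.38 to 0.06; adjusted p = 0.608, edgeR's quasi-likelihood test) was found in 16 mice and one of -0.23 ± 0.10 in the 14 (adjusted p = 0.365, edgeR).

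*Adra2b*, on chromosome 2 from 127363179 to 127367221, had the fewest counts, between 40 and 99 per mouse, and counting error alone gives it a coefficient of variation of 11.9%. B6 mice ranged from 1.20 to 2.97 CPM (median 2.60) and B6.D2 mice from 2.03 to 3.73 CPM (median 2.66). The groups overlapped, with 2 of the 8 B6.D2 mice above the highest B6 mouse and B6 mouse 2 the lowest of all. The log2 fold change was 0.18 ± 0.16 (SE; 95% CI -0.15 to 0.51; adjusted p = 0.698, edgeR's quasi-likelihood test), 0.08 without B6 mouse 2 (adjusted p = 0.862, edgeR) and 0.23 without B6 mouse 8 and B6.D2 mouse 1 (adjusted p = 0.557, edgeR). Mice of lanes 5 and 6 alone gave 0.44 ± 0.26 and mice of lanes 7 and 8 gave -0.07 ± 0.15, and the genotype by lane pair term (unadjusted p = 0.116, adjusted p = 0.950, edgeR) did not pass.

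*Adrb1* encodes the beta-1 receptor and lies on chromosome 19 from 56722117 to 56725150. It ranged from 10.8 to 14.99 CPM in B6 mice (median 13.4) and from 10.7 to 13.97 CPM in B6.D2 mice (median 12.1). The groups overlapped in 7 of 8 B6.D2 mice, and mouse 7 was the lowest of each genotype. B6 mouse 7, with 1 lane file and the fewest reads on genes, was also the lowest B6 mouse for *Adra1a* and *Adra1b*. The log2 difference was -0.10 ± 0.08 (SE; 95% CI -0.26 to 0.06; adjusted p = 0.659, edgeR's quasi-likelihood test), with 0.00 ± 0.11 in lanes 5 and 6 and -0.21 ± 0.10 in lanes 7 and 8. Without B6 mouse 8 and B6.D2 mouse 1 it was -0.08 ± 0.07 (adjusted p = 0.647, edgeR).

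Taken over the family, 0 of the 7 receptor genes passed an FDR of 5% or 20% in edgeR's quasi-likelihood test, where 0.00641% and 0.0192% of all genes tested did. At 5%, edgeR's likelihood ratio test also called 0 of the 7, beside 0.128% of all genes, and DESeq2 0, beside 0.160%. At an unadjusted p under 0.05 there was 1 receptor gene, *Adra1b*, in each of these 3 tests, beside 10% of all genes in the quasi-likelihood test, 9.60% in the likelihood ratio test and 10.3% in DESeq2. The median log2 fold change of the 7 was -0.16, against 0.01 over all genes tested, and 5 of the 7 values were below 0, as were 45.1% of all genes. Without B6 mouse 8 and B6.D2 mouse 1, 3 of the 7 genes (*Adra1b*, *Adra1d* and *Adra2a*) had an unadjusted p under 0.05, beside 12.8% of all genes, and 0 passed an FDR of 5% or 20%, beside 0.0449% and 0.0897% of all genes (edgeR's quasi-likelihood test). For none of the 7 genes were the groups free of overlap, which was the case for 0.0577% of all genes. The study, from these same mice, counts *Adra1b* and *Adra1d* among its downregulated genes at an FDR of 5%. Its edgeR model included home cage, which was not used here, so the models differ. Its list is no independent evidence of direction for these genes.

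**Figure D2:**
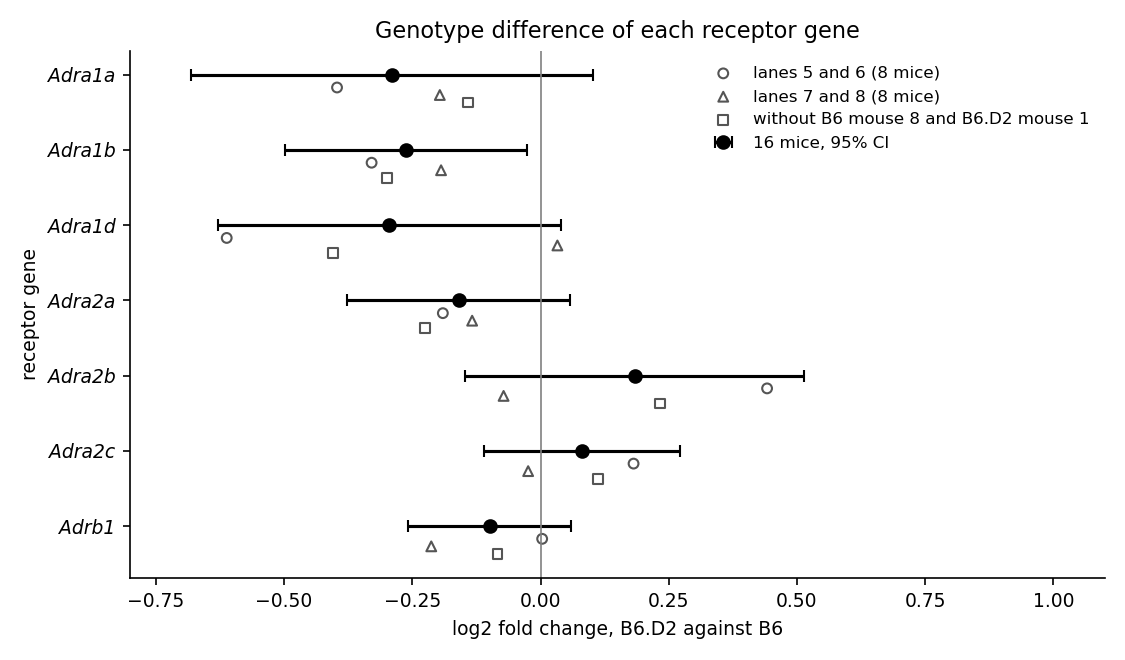
Log2 fold change of B6.D2 against B6 (horizontal axis) for each receptor gene, with filled points and 95% confidence intervals for 16 mice and open symbols for subsets of mice. The interval of *Adra1b*, -0.50 to -0.03, is the only 1 of the 7 that leaves out 0, and open symbols of *Adra1d*, *Adra2b*, *Adra2c* and *Adrb1* fall on both sides of 0.

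Spread between mice was wider than counting. In B6 mice the coefficient of variation of CPM was 11.4% for *Adrb1*, 13.9% for *Adra1a*, 15.1% for *Adra2a*, 16.1% for *Adra1b*, 16.8% for *Adra2c*, 21.4% for *Adra1d* and 24.4% for *Adra2b*. Counting error gives 2.73% for *Adra2c* and 5.29% to 11.9% for the others. In B6.D2 mice the coefficient of *Adra1a* was 31.8%, through B6.D2 mouse 1. Between the lane files of the same mouse the SD of the log2 ratio of *Adra2c* was 0.08, with 0.08 from counting alone (15 mice).

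Levels of different genes were compared per kb of annotated exon within a mouse. *Adra2c* was the highest at a median of 14.9 CPM per kb over the 16 mice, followed by *Adrb1* at 5.10, *Adra1d* at 3.20, *Adra1b* at 2.51, *Adra2a* at 2.16, *Adra1a* at 0.745 and *Adra2b* at 0.664 CPM per kb. *Adra2c* exceeded *Adrb1* in 16 of 16 mice, by a mean log2 ratio of 1.55 ± 0.20 (SD; exact two-sided sign-flip permutation test, p = 3.05e-05, the smallest that 16 mice can give; adjusted over 21 pairs, 3.77e-05). *Adrb1* exceeded *Adra1d* in 16 of 16 mice by 0.76 ± 0.41, with the same p values.

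Some neighbors further down the order lay close. *Adra1d* exceeded *Adra1b* in 12 of 16 mice, with a mean log2 ratio of 0.26 ± 0.31 (adjusted p = 0.00647, exact sign-flip permutation test), and *Adra1b* exceeded *Adra2a* in 12 of 16 mice, with 0.25 ± 0.35 (adjusted p = 0.00290, same exact test). The first of these had an adjusted p of 0.0950 and the second of 0.0984 in the 8 B6.D2 mice alone (exact permutation test), and so neither passed there. *Adra2a* was above *Adra1a* in every mouse by 1.68 ± 0.59. *Adra1a* and *Adra2b*, at the end of the order, did not differ beyond their spread, with a log2 ratio of 0.07 ± 0.66 and *Adra1a* higher in 11 of 16 mice (exact permutation p = 0.679). These orders depend on the exon lengths taken. As CPM without length, *Adra1d* was below *Adra1b* in 16 of 16 mice, by a log2 ratio of -0.58, and *Adra1b* and *Adra2a* differed by 0.08 (adjusted p = 0.416, exact permutation test). Over its longest transcript of 4282 bp *Adra1a* was the higher by a log2 ratio of 1.097 than *Adra2b* (adjusted p = 0.000107, exact permutation test), and *Adra2a* exceeded it by 0.65 in 15 of 16 mice.

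**Figure D3:**
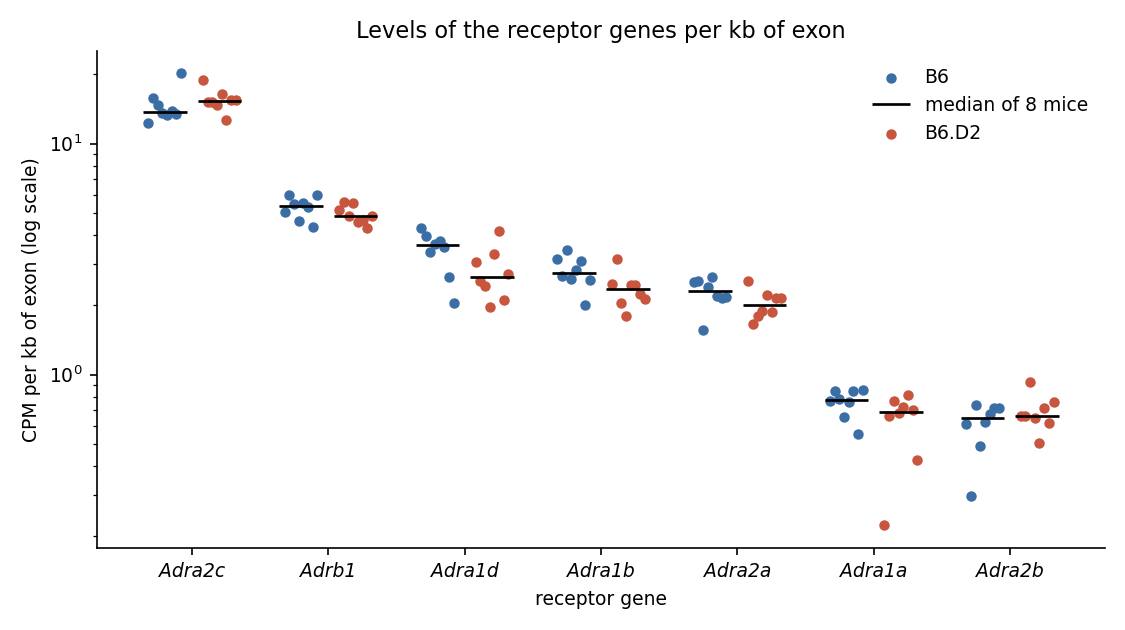
CPM per kb of annotated exon (vertical axis, log scale) of the 7 receptor genes in order of their median, each point 1 of 8 B6 or 8 B6.D2 mice and each line the median of a genotype. *Adra2c* sits between 12.3 and 20.1 in all 16 mice, above every value of the other genes.

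By family, the 3 alpha-2 genes held a median of 61.2% of the summed CPM per kb of the 7 genes, the 3 alpha-1 genes 21.6% and *Adrb1* 17.5%. The alpha-1 share ranged from 15.8% to 28.7% in B6 mice (median 24.9%) and from 16.3% to 27.2% in B6.D2 mice (median 18.6%), with overlapping groups. For scale, the dopamine receptor gene *Drd1a* had a median of 67.3 CPM per kb and *Drd2* 54.9, so that the 7 adrenergic genes together, at 29.0 CPM per kb, amounted to 43.1% of *Drd1a*.

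Markers of cortical glutamatergic neurons were lower on average in B6.D2 punches, and their part in the receptor values was not tested. In a list of 10 such genes outside the study's list of changed genes, 10 of 10 log2 fold changes were below 0, with a median of -0.32, and 6 had an unadjusted p under 0.05 while 0 passed 5% FDR in edgeR's quasi-likelihood test. Over all genes tested 45.1% were below 0 and 5.14% were below 0 with an unadjusted p under 0.05. In the 14 mice without the libraries that stood apart the list had 10 of 10 below 0, 6 with an unadjusted p under 0.05, *Dkk3* (0.0757) no longer among them, and a median of -0.28, where 50.9% of all genes were below 0 and 7.32% were so with that p. The summed level of the list ranged from 573 to 814 CPM in B6 mice (median 665) and from 493 to 717 CPM in B6.D2 mice (median 537). Its most abundant gene was the transcription factor gene *Mef2c*, with 33.3% of the sum, which striatal neurons also express, and none of the 10 was at 0. *Mef2c* had a mean of 232 ± 34.5 CPM in B6 and 180 ± 29.9 CPM in B6.D2 mice (SD; log2 fold change -0.36, adjusted p = 0.331, edgeR).

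Other genes of the list named by their p were the potassium channel subunit gene *Kcnv1* (log2 fold change -0.38, adjusted p = 0.331, edgeR), *Dkk3* (-0.24) and the vesicular zinc transporter gene *Slc30a3* (-0.69). A second list held 6 cortical genes that the study picked from these same mice and so is no independent evidence of direction, and 6 of 6 were below 0 with an unadjusted p under 0.05, a median of -0.56 and 0 past 5% FDR (edgeR's quasi-likelihood test), and -0.57 with the same counts in the 14 mice. Its most abundant gene, the vesicular glutamate transporter gene *Slc17a7*, had 415 ± 81.9 CPM in B6 and 268 ± 82.2 CPM in B6.D2 mice (SD). *Tbr1* (-0.52) and *Neurod6* (-0.56) were of like size on the log2 scale. At 5% FDR the likelihood ratio test called *Neurod6* (adjusted p = 0.0430) and DESeq2 *Neurod6* and *Kcnv1*, which were the only calls in the 42 tested genes of all marker lists, beside 0.128% and 0.160% of all genes. In bulk RNA, fewer cells of a type and less RNA per cell cannot be told apart.

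The mean standardized log2 CPM of the first list gave each mouse a cortical marker score. It ranged from -0.62 to 1.32 in B6 mice (median 0.53) and from -1.22 to 0.92 in B6.D2 mice (median -0.45), and 7 of the 8 B6.D2 mice were below the B6 median. *Adrb1* followed the score most closely, with r = 0.783 (p = 0.00038) and rho = 0.771 (p = 0.00086) over 16 mice as deviations from the genotype mean (permutation test with 100000 resamples, two-sided; adjusted over the 7 relations, 0.00266 and 0.00602). Without the 2 mice farthest from the median score r was 0.860. Within lanes 5 and 6 r was 0.830 (8 mice, exact permutation p = 0.0174), and within lanes 7 and 8 it was 0.733 (8 mice, exact permutation p = 0.0747). The relation to the score was computed for the 7 receptor genes only. How common such a value of r is among all genes tested was not examined.

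*Adra1b* had the next highest value, r = 0.620 (permutation p = 0.0152, adjusted 0.0533) and rho = 0.474 (permutation p = 0.0741, adjusted 0.259), which did not pass after adjustment. With the genotype means left in, r was 0.727 (adjusted permutation p = 0.00609) and passed. It was 0.542 without the 2 farthest mice, 0.608 within lanes 5 and 6 and 0.737 within lanes 7 and 8. For *Adra1a*, *Adra1d* and *Adra2c* r lay between 0.0999 and 0.274, and for *Adra2a* and *Adra2b* it was -0.414 and -0.211, all with an adjusted permutation p over 0.05. Within lanes 7 and 8 alone r of *Adra1a* was 0.780 (8 mice, exact permutation p = 0.0156, adjusted 0.109), and within lanes 5 and 6 it was 0.299. Without B6 mouse 8 and B6.D2 mouse 1 r was 0.48 for *Adra1a*, 0.18 for *Adra1d*, 0.64 for *Adra1b* and 0.82 for *Adrb1*. Of these only that of *Adrb1* passed (adjusted permutation p = 0.00364).

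With the score as a covariate, the log2 fold change of *Adra1b* was -0.06 ± 0.11, that of *Adra1a* -0.13 ± 0.23 and that of *Adrb1* 0.06 ± 0.07, a change of sign for *Adrb1*. *Adra2a* moved the other way, to -0.28 ± 0.13, and was then the 1 receptor gene with an unadjusted p under 0.05 (0.0412), beside 2.06% of all genes. The log2 fold change was -0.24 ± 0.21 for *Adra1d*, 0.10 ± 0.20 for *Adra2b* and 0.12 ± 0.12 for *Adra2c*. The adjusted p was 0.998 for each of the 7 genes in this fit, and over the alternatives with lane files summed adjusted values ran from 0.268 to 0.998 (edgeR and DESeq2).

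**Figure D4:**
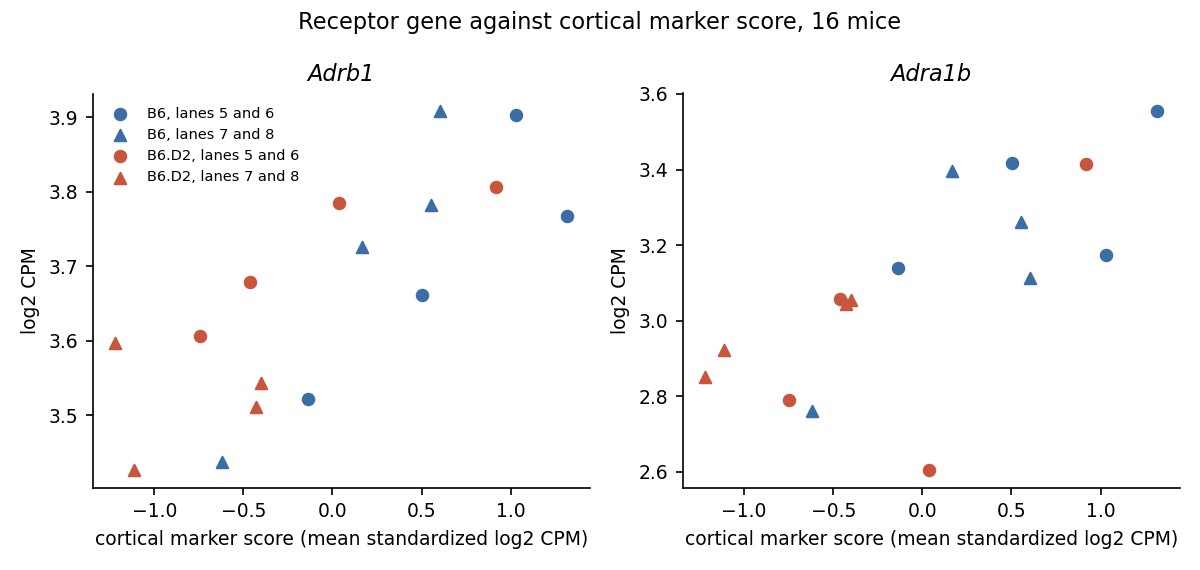
Log2 CPM of *Adrb1* and of *Adra1b* (vertical axes) against the cortical marker score (horizontal axes, mean standardized log2 CPM of 10 genes), each point 1 of 16 mice, by genotype and pair of lanes. After removal of the genotype means r is 0.783 for *Adrb1* and 0.620 for *Adra1b*, of which only that of *Adrb1* passed (adjusted permutation p of 0.00266 and 0.0533).

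Downstream of the receptors, 50 of 52 pathway genes were tested in 5 lists, and 0 passed an FDR of 5% or 20% in edgeR's quasi-likelihood test, with 0 at 5% in the likelihood ratio test and 0 in DESeq2. At an unadjusted p under 0.05, 8 had a log2 fold change below 0 and 1 above 0, beside 5.14% and 4.86% of all genes. With the cortical marker score as a covariate 0 of the 50 had an unadjusted p under 0.05, where only 2.06% of all genes did. Leaving out B6 mouse 8 and B6.D2 mouse 1, there were 11 below 0 and 2 above 0 at that p, where 12.8% of all genes had it, and the median of the 50 moved from -0.06 to -0.02.

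In the Gq/11 branch of the alpha-1 receptors, 10 of 14 genes were below 0, with a median of -0.09, and 1 had an unadjusted p under 0.05, the protein kinase C gene *Prkca* (170 ± 20.5 CPM in B6 and 145 ± 22.3 CPM in B6.D2 mice, SD; log2 fold change -0.23, adjusted p = 0.445, edgeR). The most abundant genes were *Prkcb*, another protein kinase C, at a mean of 1704 CPM, and *Itpr1*, the receptor that releases calcium from internal stores, at 1316 CPM. Their log2 fold changes were -0.11 and -0.12, and -0.01 and 0.03 without B6 mouse 8 and B6.D2 mouse 1. In those 14 mice 8 of the 14 genes were below 0, with a median of -0.02, and 2 below and 1 above 0 had an unadjusted p under 0.05. There *Prkca* had -0.15 (unadjusted p = 0.0499, adjusted p = 0.392, edgeR).

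In the Gi/o branch of the alpha-2 receptors, 6 of 8 genes were below 0, with a median of -0.16, and 4 had an unadjusted p under 0.05, all below 0, beside 5.14% of all genes. They were 3 genes of inwardly rectifying potassium channels and the G protein gene *Gnaz*. *Kcnj6* had 7.36 ± 1.82 CPM in B6 and 4.83 ± 1.71 CPM in B6.D2 mice (SD; log2 fold change -0.62, adjusted p = 0.397, edgeR). *Kcnj3* (-0.41), *Kcnj9* (-0.25) and *Gnaz* (-0.24) had adjusted p values of 0.422, 0.422 and 0.407 in the same edgeR test. All 8 B6.D2 mice were below the B6 median for *Kcnj6*, *Kcnj3* and *Gnaz* and 7 of 8 for *Kcnj9*. The abundant G protein genes *Gnao1*, at 895 CPM, and *Gnai2*, at 175 CPM, had log2 fold changes of 0.00 and 0.03. Without the libraries that stood apart 6 of 8 were below 0, with a median of -0.12, and 5 had an unadjusted p under 0.05, the 4 named among them, where 7.32% of all genes were below 0 with that p. In those mice the log2 fold change was -0.54 for *Kcnj6*, -0.33 for *Kcnj3*, -0.19 for *Kcnj9* and -0.14 for *Gnaz*. With the cortical marker score as a covariate the list median was -0.10, *Kcnj6* had -0.21, *Kcnj3* -0.28, *Kcnj9* -0.13 and *Gnaz* -0.18, and 0 of the 8 had an unadjusted p under 0.05, where 2.06% of all genes did (edgeR's quasi-likelihood test).

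In the Gs branch of the beta receptors, 8 of 10 genes were below 0, with a median of -0.07. An unadjusted p under 0.05 was found for the adenylyl cyclase gene *Adcy2* (log2 fold change -0.12, adjusted p = 0.445, edgeR) and for *Prkacb*, a catalytic subunit of protein kinase A (-0.11, adjusted p = 0.463, edgeR). Of all genes tested, 10% had an unadjusted p under 0.05, and 5.14% had it with a log2 fold change below 0. The striatal forms *Adcy5*, at 1234 CPM, and *Gnal*, at 737 CPM, had -0.01 and -0.08. The summed level of this branch was 4811 CPM in B6 mouse 8 and 3426 CPM in B6.D2 mouse 1, above and below all other mice. Without this pair 6 of 10 genes were below 0, with a median of -0.03, *Adcy5* had 0.11 (unadjusted p = 0.0362, adjusted p = 0.364, edgeR) and *Prkacb* -0.07 (unadjusted p = 0.0538, adjusted p = 0.400, edgeR).

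Among receptor kinases, arrestins and regulators, 9 of 10 genes were below 0, with a median of -0.08. The receptor kinase gene *Adrbk1* had 174 ± 9.41 CPM in B6 and 156 ± 10.2 CPM in B6.D2 mice (SD; log2 fold change -0.15, adjusted p = 0.361, edgeR), with all 8 B6.D2 mice below the B6 median. The arrestin gene *Arrb2* was the 1 pathway gene above 0 at an unadjusted p under 0.05 (0.13, adjusted p = 0.479, edgeR). *Ppp1r9b*, at 1293 CPM, and *Rgs4*, at 972 CPM, were the most abundant, with -0.06 and -0.04. In the 14 mice 7 of 10 were below 0, with a median of -0.02, *Adrbk1* had -0.12 (unadjusted p = 0.00692, adjusted p = 0.276, edgeR) and *Arrb2* 0.06 (unadjusted p = 0.125, adjusted p = 0.497, edgeR). With the score as a covariate *Adrbk1* had -0.09 and *Arrb2* 0.09, and of the genes named from the other branches *Prkca* had -0.08, *Adcy2* -0.05 and *Prkacb* -0.08 (edgeR).

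Genes of noradrenaline synthesis, storage, uptake and breakdown had no gene with an unadjusted p under 0.05 in 16 mice, beside 10% of all genes tested. Of 10, *Dbh* and *Slc6a2* were under the filter on low counts, 7 of the 8 tested were above 0, and the median was 0.05 (edgeR). In the 14 mice 5 of 8 were above 0, the median was 0.02 and 1 gene below 0 had an unadjusted p under 0.05. There 7.32% of all genes were below 0 with that p. The breakdown enzyme gene *Maoa*, at 54.4 CPM, had a log2 fold change of 0.03. *Dbh*, which makes noradrenaline from dopamine, had 58 counts over all 16 mice.

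Markers of other cells had no gene past 5% FDR by the quasi-likelihood test of edgeR. The striatal projection neuron list had 8 of 9 genes above 0 (median 0.04, 0 with an unadjusted p under 0.05), astrocytes 4 of 6 (0.08, 0) and oligodendrocytes 5 of 5 (0.06, 0). *Aldoc*, at 863 CPM, and *Slc1a3*, at 696 CPM, led the astrocyte list with 0.10 and 0.00, and *Cnp*, at 891 CPM, of the oligodendrocyte list had 0.06. In endothelial and mural cells 6 of 6 were above 0 (median 0.15), and the smooth muscle genes *Acta2* (0.45, adjusted p = 0.445) and *Myh11* (0.40, adjusted p = 0.407) had an unadjusted p under 0.05 in edgeR's test. Of all genes tested, 4.86% were above 0 with that p and 45.1% were below 0. The most abundant genes of the endothelial and mural list, *Flt1*, at 74.3 CPM, and *Cldn5*, at 41.4 CPM, had 0.12 and 0.09. In the 14 mice the medians were 0.09, 0.04, 0.02 and 0.19 in the order of these lists, 1 striatal and 2 endothelial or mural genes, all above 0, had an unadjusted p under 0.05, and *Acta2* (0.28, unadjusted p = 0.0890, adjusted p = 0.459, edgeR) was no longer among them. Of the 15601 genes tested in these mice, 848 were above 0 with an unadjusted p under 0.05 and 50.9% were below 0.

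**Figure D5:**
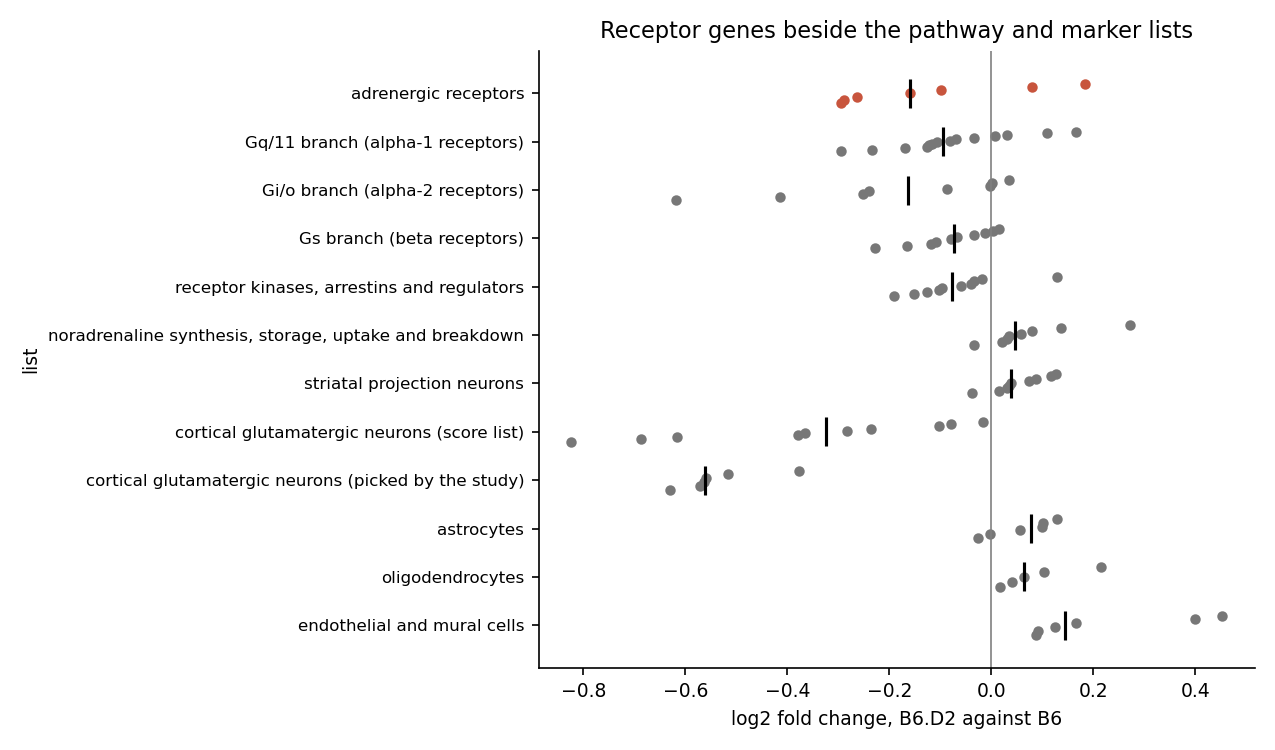
Log2 fold change of B6.D2 against B6 (horizontal axis) of each tested gene of the receptor, pathway and marker lists, each point 1 gene and each bar the median of a list. The medians are -0.16 for the receptor genes and for the Gi/o branch, and -0.32 and -0.56 for the cortical lists.

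The genes whose profile over the 16 mice was most like that of each receptor gene were found by the root-mean-square difference of standardized log2 CPM among 15588 other genes. The closest were *Tnr* (0.234), *Helz* (0.258) and *Arhgef12* (0.264) to *Adra1a*, a profile in which B6.D2 mouse 1 was far below the rest. *Adra1b* was most like 9130024F11Rik (0.474) and *Egln3* (0.504). *Adra1d* was most like *Zmat4* (0.509), *Lnx1* (0.546) and *Wbscr27* (0.581). The alpha-2 genes followed, *Adra2c* with *Sowaha* (0.399), *Stard10* (0.438) and *Itgb1bp1* (0.441), *Adra2a* with *Dner* (0.608), *Csdc2* (0.613) and *Camk2d* (0.649), and *Adra2b* with *Dbt* (0.656), *Cdkn1b* (0.668) and *Slc44a1* (0.689). *Adrb1* was most like *Rasl10a* (0.492), *St3gal5* (0.502) and *Fam163b* (0.515).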

How the data were processed

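Striatal RNA of 16 mice was sequenced by the study as stranded, oligo-dT selected 50 bp single-end reads. The submitters' notes and alignment commands name TopHat2, bowtie2 2.2.2, mm10 and HTSeq 0.6.1p1, and the deposited counts are whole reads per gene and lane, which the authors counted over exons without strand and did not normalize. Here 31 lane files were summed to 16 mice (B6 mouse 7 by 1 file), after lane files were compared by chi-square (0.997 to 1.05 per degree of freedom, genes of at least 20 counts). The 5 entries that name no gene (31.7% to 38.6% of counts) were left out. The authors' own comparison (log2 fold changes, CPM, p-values and FDR) was not used.

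In R 4.3.3, edgeR 4.0.16 served for the filter (filterByExpr), the TMM scaling and the quasi-likelihood test, and p-values were adjusted over every tested gene by Benjamini and Hochberg's method. DESeq2 1.42.0, SciPy 1.17.1 and Python 3.11 served for alternatives and permutation tests. Log2 CPM used a prior count of 0.5. Positions came from RefSeq (GRCm38.p6, the build of the files) and exon lengths from GENCODE M1, whose gene models are on mm9, another build than that of the counts. Alternatives changed the normalization, filter, test, lanes, covariates and mice.

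The members and lists were chosen with earlier results of these data known. From each list the 2 most abundant genes and up to 4 with the smallest unadjusted p under 0.05 are named, with every gene at an FDR of 20%, the 3 genes most like each receptor gene, *Drd1a*, *Drd2* and *Hnrnph1*. *Phox2a* is named beyond that rule as a marker near 0. A few genes that the rule takes are not reported here.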

Additional observations from a re-analysis of the deposited data

Results flagged for a closer look

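In 48 groups of 8 mice, the highest or the lowest mouse was compared with the nearest of the others, and 10 values stood apart from their group by more than chance gives in about 1 of 20 groups. B6.D2 mouse 1 had 27.3% of counts for several alignments and 10.2% outside annotated exons, and its summed levels were 3048 CPM for the Gq/11 branch, 3426 CPM for the Gs branch and 237 CPM for the genes of noradrenaline synthesis, storage, uptake and breakdown, where the other B6.D2 mice had medians of 20.8%, 15.3%, 4582, 4186 and 203. B6 mouse 8 had 68.3% of counts on genes, 11.3% outside annotated exons, 64.4 CPM of *Adra2c* and 4811 CPM for the Gs branch, where the other B6 mice had medians of 63.6%, 15.2%, 43.5 and 4214. The part of the read shares in these levels was not tested. B6 mouse 3 had 5.90 CPM of *Adra2a*, against 8.19 to 10 CPM in the other B6 mice, and its library did not stand apart in the shares of reads.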

How the results depend on the processing

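Over 30 alternative fits, 205 of 210 log2 fold changes of the receptor genes kept their direction and 1 passed an FDR of 5%. That was *Adra1b* (-0.28, adjusted p = 0.0370, edgeR) with lane files entered as independent samples, which counts a mouse more than once, calls 1068 genes (7.20% of those tested) and gave 1 receptor gene at 5% and 3 at an unadjusted p under 0.05, beside 24.3% of all genes. Direction changed in lanes 7 and 8 for *Adra1d* (0.0329), *Adra2b* (-0.0720) and *Adra2c* (-0.0241), and for *Adrb1* in lanes 5 and 6 (0.0032) and with the cortical marker score (0.0587). At an unadjusted p under 0.05 there was 1 receptor gene in lanes 5 and 6 (3.20% of all genes) and 0 in lanes 7 and 8 (9.01%). There were 3 without B6 mouse 8 and B6.D2 mouse 1 (12.8%), and 0 to 3 with 1 mouse left out (7.09% to 13.4%). The cause was not tested.

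With 1 mouse left out, log2 fold changes ran from -0.35 to -0.16 for *Adra1a* (highest without B6.D2 mouse 1), -0.34 to -0.21 for *Adra1b*, -0.40 to -0.24 for *Adra1d*, -0.22 to -0.12 for *Adra2a*, 0.08 to 0.23 for *Adra2b* (lowest without B6 mouse 2), 0.03 to 0.16 for *Adra2c* and -0.13 to -0.07 for *Adrb1*, and 0 receptor genes passed 5%.

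Without exon length the log2 ratio of *Adra1d* to *Adra1b* was -0.58, of *Adra1b* to *Adra2a* 0.0825 and of *Adra1a* to *Adra2b* 1.19. With the longest transcript the last was 1.097. In B6.D2 mice alone these 3 ratios, per exon length, were 0.24, 0.20 and -0.22, and none passed 5%.

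With genotype means left in, r with the score was 0.727 for *Adra1b* (adjusted permutation p = 0.00609), which then passed but includes the genotype difference of both, and -0.033 for *Adra2c*. For *Adra1d* it was -0.182 in lanes 5 and 6, for *Adra2a* 0.128 in lanes 7 and 8, and for *Adrb1* 0.830 in lanes 5 and 6 and 0.733 in lanes 7 and 8, with adjusted exact permutation p of 0.122 and 0.174 (8 mice each). Without B6 mouse 8 and B6.D2 mouse 1 the genotype by lane pair term was -0.0072 for *Adra1a* and 0.0609 for *Adra2c*. Of the list genes, 0 pathway and 4 marker genes had an unadjusted p under 0.05 with the score as a covariate (2.06% of all genes), against 9 and 14 without (10%), though 6 of these 14 are part of the score itself, and the likelihood ratio test called 1 marker gene at 5%.

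Mice with the same number share that number and a pair of lanes, and the correlation of their deviations ran from -0.115 to 0.364, over 0.1 in 3 of 8, and 2 of 8 B6 mice correlated best with their own number. With that number as a replicate block the log2 fold changes were -0.34, -0.26, -0.30, -0.16, 0.20, 0.09 and -0.09 in the order *Adra1a*, *Adra1b*, *Adra1d*, *Adra2a*, *Adra2b*, *Adra2c* and *Adrb1*, and 0 receptor genes and 0 genes in all passed 5%, with 1 receptor gene at an unadjusted p under 0.05, beside 8.83% of all genes.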

Other observations

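The 300 bases around the annotated starts of 5 of the 7 receptor genes (6 starts, RefSeq, GRCm38.p6) were rich in G and C in 4 of the 6, at 68.0% to 72.3%, against a median of 52.7% over 32851 mouse promoters. *Adra1a* and *Adra1d* were not matched. Searched on both strands, the core of the cyclic AMP response element, TGACG, was found in the windows of *Adra2a* and *Adrb1* and in 20.8% of all promoters, and the whole element, TGACGTCA, in none of the 6 and in 1.79%. GGGCGG was found for *Adra1b*, *Adra2a*, *Adra2b* and *Adrb1* (35.7% of all), CANNTG for *Adra2a* and *Adra2c* (72.3%) and TATAAA for *Adra2a* (13.6%). A match is a description of letters and not of binding.

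Relations between the receptor genes over the 16 mice, computed after seeing the data, were weak. None of the 21 pairs passed 5% after adjustment, and the highest r was 0.484, between *Adra1b* and *Adra1d* (rho = 0.521; permutation p = 0.0698 and 0.0476; adjusted p of r 0.480), with 0.421 in lanes 5 and 6, 0.545 in lanes 7 and 8 and 0.605 without the 2 mice farthest from the median of *Adra1b*.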
